A study of Mus musculus with 6 samples.

Results

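Septum-like GABA neurons were the nuclei that carried transcripts of the GABA-synthesizing enzymes Gad1 and Gad2 together with the zinc-finger transcription factors Zic1 and Zic4. A nucleus was taken when it had at least 2 UMIs (unique molecular identifiers, each standing for 1 captured transcript) of Gad1 plus Gad2 and at least 2 of Zic1 plus Zic4. It could hold at most 4 UMIs of the striatal genes Pde10a plus Rgs9, at most 1 of the glutamate transporter gene Slc17a7, at most 1 of Adamts19, Vipr2, Cpa6 and Frmd7 together, and 0 of the fibroblast genes Slc6a13, Dcn and Col1a2. Of 40685 nuclei with at least 500 detected genes and at most 5% mitochondrial UMIs, 192 met these limits. The measured UMIs of these genes chose the members, so their levels are given as descriptions only.

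The study compared brains of wildtype C57BL/6 mice 6 weeks after a sham operation with brains taken 6 weeks after 5/6 nephrectomy, a surgical loss of most kidney tissue that serves as a model of chronic kidney disease. Both groups had the same genotype and differed by the operation, and the labels used here give no age. There were 3 sham and 3 nephrectomy libraries of single-nucleus RNA, and the labels do not tie libraries to individual mice, so p-values measure only the spread between libraries, which may be technical. The series is described as a study of the cortex, and the septum is not named in any label. The septum lies below the front of the corpus callosum, between the lateral ventricles and next to the striatum. Its lateral part is made mostly of GABA-releasing projection neurons that receive hippocampal input and project to the hypothalamus, and it is known for roles in stress, feeding, aggression and social behaviour. Its medial part holds cholinergic, glutamatergic and parvalbumin neurons that pace the hippocampal theta rhythm. Zic genes encode transcription factors that are active in the embryonic midline, including the septal primordium.

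Zic1 (ENSMUSG00000032368, chromosome 9, reverse strand) and Zic4 lie head to head, and their RefSeq start sites are 3204 bases apart in GRCm38.p6. They were counted separately, although Zic4 transcripts in the GENCODE M21 annotation overlap Zic1 on the opposite strand, so reads in the overlap may be uncertain. Both genes had a UMI in 104 of the 192 members, Zic1 alone in 68 and Zic4 alone in 20. In the summed members Zic1 had 92, 60 and 112 UMIs in sham and 41, 47 and 94 after nephrectomy, and Zic4 had 48, 30 and 82 in sham and 48, 26 and 45 after nephrectomy. The upstream stretch of Zic1 is shown because Zic1 carried most of the Zic UMIs that selected the class: it runs from 250 to 51 bases before the RefSeq start (chr9:91365819-91366018, reverse strand, GRCm38.p6), written 5′ to 3′ with every CG dinucleotide in capitals.
Zic1 upstream: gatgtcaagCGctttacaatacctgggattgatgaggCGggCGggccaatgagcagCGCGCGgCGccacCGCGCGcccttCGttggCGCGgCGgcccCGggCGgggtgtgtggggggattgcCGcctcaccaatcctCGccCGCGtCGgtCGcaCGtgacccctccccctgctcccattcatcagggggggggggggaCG
These 200 bases hold 24 CG dinucleotides and are 71.5% G or C. Over the same window of 32851 RefSeq promoters, the median was 4 CG dinucleotides and 51.5% G or C, and 5.59% of promoters held at least as many CG dinucleotides as Zic1. The sequence is a description of the locus and no methylation or binding was measured here.

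The sham libraries held 33, 19 and 57 members with 240340, 127158 and 246896 summed UMIs. The nephrectomy libraries held 23, 20 and 40 members with 141150, 87840 and 186751 summed UMIs. All levels below are in CPM, the UMIs of a gene in 1000000 UMIs of such a library sum, and the values of a group follow the replicate numbers 1, 2 and 3. Over all nuclei, sham 3 and nephrectomy 1 had 13673 and 12230 kept nuclei against 2566 to 4870 in the other 4 libraries, and their median UMIs per kept nucleus were 2008 and 1001 against 3163 to 5353.5. Among members the gap was smaller, where sham 3 had a median of 3749 UMIs, nephrectomy 1 had 6269, and the other 4 libraries ranged from 4224.5 to 6743. No 2 libraries shared more than 0.463% of the smaller library's cell barcodes, and summed profiles of replicate libraries differed by more than sampling noise.

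Markers that the gate did not use were described next. Trpc4 and Prlr belong to the marker set that named the class, which was chosen with earlier results of these data known. Their levels are thus a description and no independent check of the label. Trpc4, a calcium-permeable cation channel of the TRPC family known from the lateral septum, was at 537, 252 and 454 CPM in sham and at 383, 330 and 300 after nephrectomy. In striatal-like nuclei of the same libraries (2814 nuclei with at least 2 UMIs of Gad1 plus Gad2, no Zic1 or Zic4 and over 4 of Pde10a plus Rgs9) Trpc4 ranged from 15.8 to 29.2, and in the other GABA nuclei (3543 with no Zic1 or Zic4 and at most 4 of Pde10a plus Rgs9) from 56.3 to 114. Every septum-like library thus lay above every library of both comparison classes. Prlr, the receptor for the pituitary hormone prolactin, ranged from 56.7 to 112 in septum-like nuclei, from 0 to 6.30 in striatal-like nuclei and from 0.761 to 25.4 in other GABA nuclei.

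The gene that set the class apart most was Prkcd, the calcium-independent protein kinase C delta. Its level was 208, 118 and 113 CPM in sham and 77.9, 228 and 300 after nephrectomy, against at most 12 in any library of the comparison classes. Of 2507 genes outside the gate with at least 50 CPM in every septum-like library, 62 had their lowest septum-like library above the highest comparison library. Dividing the lowest septum-like library by the highest comparison library gave 6.50 for Prkcd, 2.23 for Prlr and 2.21 for Trpc4. Next came Dgkg, a diacylglycerol kinase, at 2.20, the recycling-endosome motor Myo5b at 2.14, and the collagen gene Col9a3 at 1.99. Plekha7, a protein of adherens junctions, followed at 1.70, then the filopodial motor Myo10, the ATP-gated channel P2rx4 and the scaffold gene Whrn, each at 1.66. Man1a, Tspan33, Nsun7, the transcription factor Zfhx3 and the sodium-calcium exchanger Slc8a1 completed the first 15, at 1.63 down to 1.42. Classes defined on these same nuclei allow no test of such a difference, so these ratios are a description.

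**Figure D1:**
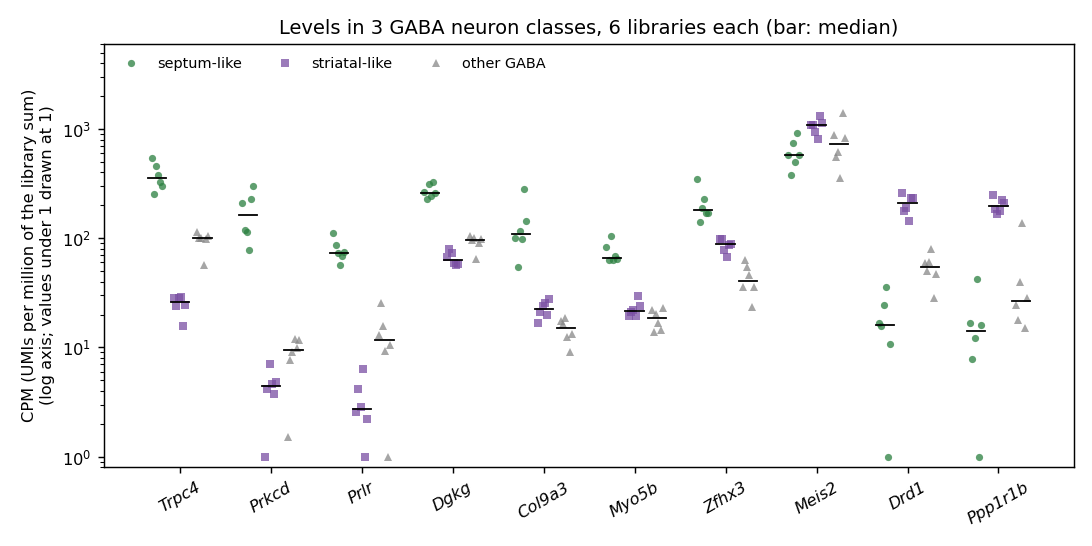
CPM (log axis, values under 1 drawn at 1) of 8 genes of the septum-like class and of the striatal genes Drd1 and Ppp1r1b, with 1 point per library and a bar at the median of 6 libraries for septum-like, striatal-like and other GABA nuclei. Trpc4, Prkcd and Prlr in septum-like nuclei lie above all libraries of both other classes, Meis2 does not, and Drd1 and Ppp1r1b lie below the striatal-like libraries.

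Further genes were described for the same 3 classes. The Zic genes that the gate did not use were also present, with a mean of 40.0 CPM for Zic2 against 1.17 in striatal-like and 2.28 in other GABA nuclei, and 47.6 for Zic5 against 2.42 and 3.92. Prdm16, a zinc-finger regulator of progenitors and neurons, averaged 58.7 against 4.35 and 7.23. Glp1r, the receptor for the gut and brainstem peptide GLP-1, averaged 28.9 against 0.398 and 1.63, but it was at 0 in sham 2 and in nephrectomy 3. Meis2, a homeobox gene of the lateral ganglionic eminence and septum, was shared, with means of 614, 1057 and 769 in the 3 classes. The striatal genes Drd1, a dopamine receptor, and Ppp1r1b, which encodes DARPP-32, averaged 17.1 and 15.9 in septum-like nuclei against 206 and 202 in striatal-like nuclei.

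Several known lateral septal genes were scarce. Esr1, the estrogen receptor, had a UMI in 2 of 192 members, and the peptide gene Nts had one in 12. No UMI of the vasopressin receptor gene Avpr1a was found, and 0 of 192 nuclei allow a share with a UMI of up to 1.56%. Penk, the enkephalin precursor, had a UMI in 41 members and Sst, the somatostatin precursor, in 30. With each nucleus thinned to 1500 UMIs, Penk was seen in 5.35% of septum-like and 10.7% of oligodendrocyte-like nuclei, a class that should lack both genes, and Sst in 6.42% and 6.52%. Nts was seen in 1.07% and 0.562%, or 2 of 187 and 5 of 889 nuclei. Pooled over libraries, the shares of Penk and Sst were thus at or below the background and are not read as expression. The background differed between libraries, and for Sst it was 22.9% in nephrectomy 1 and 0.971% in nephrectomy 2. Within libraries, Sst was above it in sham 2 (2 of 19 nuclei), nephrectomy 2 (1 of 17) and nephrectomy 3 (3 of 40). Sst was below it in sham 1, sham 3 and nephrectomy 1. Penk was above it only in sham 2 (1 of 19 nuclei). Of 6 cerebellar granule cell genes, Gabra6, Cbln3, Fat2 and Neurod1 had no UMI, Cbln1 had 1 and Etv1 had 52. The olfactory granule and periglomerular list summed to 606 to 1065 CPM in sham and 889 to 1400 in nephrectomy libraries. In other GABA nuclei it summed to 970 to 1483 and 625 to 2314. The neuroblast list summed to 374 to 389 and 482 to 535, against 388 to 455 and 264 to 516 in other GABA nuclei. A thalamic and glutamate neuron list that holds Prkcd summed to 204 to 266 CPM in sham and 149 to 439 in nephrectomy libraries. It summed to 108 to 123 and 97.3 to 123 in striatal-like nuclei, and to 125 to 175 and 140 to 155 in other GABA nuclei. Of its 6 genes, Prkcd had 180 UMIs in the class, Rora 66, Slc17a6 11, Tcf7l2 10, Lef1 4 and Gbx2 1. Because the dissected region is given only as brain and cortex, the position of the septum-like nuclei in the tissue was not tested.

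The class was mixed at the level of single nuclei. Trpc4 had a UMI in 132 of 192 members (68.8%), Prkcd in 74 (38.5%) and Prlr in 41 (21.4%), and 44 members (22.9%) had none of the 3. Deeper nuclei show more genes, so each nucleus was also thinned to 1500 UMIs, which left out 5 septum-like, 39 striatal-like, 1213 other GABA and 965 oligodendrocyte-like nuclei. After thinning, Trpc4 was seen in 39.6% of septum-like nuclei, 3.50% of striatal-like, 10.9% of other GABA and 1.24% of oligodendrocyte-like nuclei, the last a class that should lack the gene. The same shares were 19.3%, 0.541%, 1.20% and 1.12% for Prkcd and 8.02%, 0.360%, 1.46% and 0.225% for Prlr. Before thinning, the oligodendrocyte-like shares were 1.51% for Trpc4, 1.51% for Prkcd and 0.485% for Prlr.

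Prkcd was found mostly in nuclei that also had Trpc4. Of 74 Prkcd nuclei 63 had Trpc4 (85.1%), against 69 of the 118 without Prkcd (58.5%). After thinning, the shares were 58.3% and 35.1%, and the share was higher among Prkcd nuclei in 6 of 6 libraries before thinning. Prlr was seen in 25.0% of Trpc4 nuclei and 13.3% of the others, and after thinning in 8.11% and 7.96%. Prkcd and Prlr were seen together in 17 members.

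Among the members, 8 nuclei had at least 2 UMIs of Chat plus Slc5a7, the genes for acetylcholine synthesis and choline uptake. They came from sham 3 (3 nuclei), nephrectomy 1 (2), nephrectomy 2 (1) and nephrectomy 3 (2), and none from sham 1 or sham 2. All 8 had a UMI of Slc17a8, the third vesicular glutamate transporter, against 1 of the other 184 members. Lhx8, a homeobox gene needed for basal forebrain cholinergic neurons, was seen in 6 of 8 against 4 of 184, and Isl1 in 8 of 8 against 45 of 184. Trpc4 was seen in 6 of 8, Prkcd in 2 and Prlr in 0. Their median depth was 8450.5 UMIs against 5059.5 in the rest. They were set apart after their values had been seen, so no test was made, and where these 8 nuclei lay in the tissue was not tested. The marker list of the medial septum summed to 62.4 to 212 CPM in sham and 203 to 347 in nephrectomy libraries of the whole class. In other GABA nuclei the same list summed to 238 to 339 in sham and 222 to 307 in nephrectomy libraries, so it did not set the class apart.

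**Figure D2:**
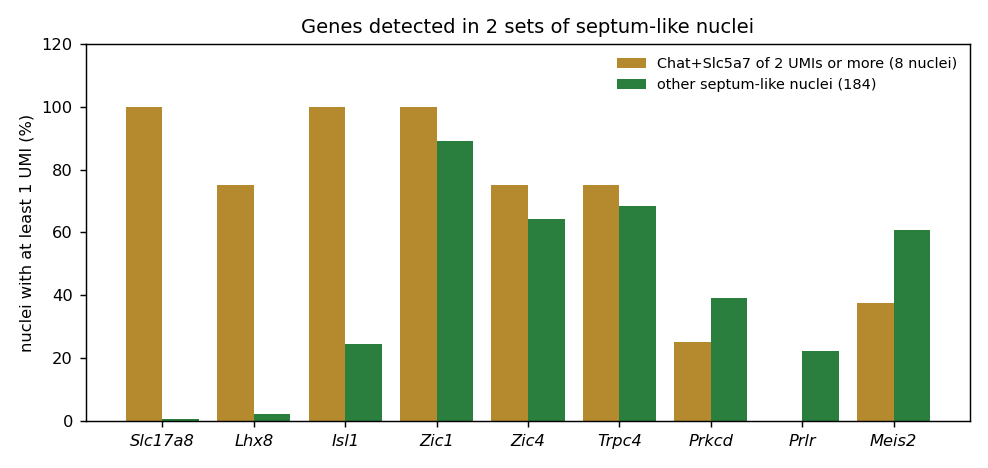
Percentage of nuclei with at least 1 UMI of each gene among the 8 septum-like nuclei with at least 2 UMIs of Chat plus Slc5a7 and among the other 184. Slc17a8 stands at 100% and 0.543%, while Trpc4 stands at 75.0% and 68.5%.

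Nuclei on both sides of the gate limits were compared for 3 class genes. The 75 members with exactly 2 Zic UMIs had a summed Trpc4 level of 390 CPM, and the 190 nuclei with 1 Zic UMI that met all other limits had 171. For Prkcd the values were 119 inside and 60.6 outside, and for Prlr 55.3 and 38.5. Across the striatal limit, the 28 members with 4 UMIs of Pde10a plus Rgs9 had 436 for Trpc4, 231 for Prkcd and 91.4 for Prlr, and the 13 nuclei with 5 had 292, 119 and 97.2. Across the limit on Gad1 plus Gad2, the 58 members with 2 UMIs had 425 for Trpc4, 110 for Prkcd and 94.1 for Prlr, and the 109 nuclei with 1 had 188, 104 and 38.8. The 7 nuclei with 1 fibroblast UMI had 525 for Trpc4, above the 400 of all members, with 61.8 each for Prkcd and Prlr. Across the limits on Slc17a7 and on the Adamts19 group, Trpc4, Prkcd and Prlr were each lower outside than inside.

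Transcripts of glia were present in some members. In 37 of 192 nuclei, genes of the oligodendrocyte or of the astrocyte list made up over 0.2% of the UMIs. Sham libraries held 1, 6 and 18 of them, nephrectomy libraries 6, 2 and 4. All 10 genes of the oligodendrocyte list had UMIs in the class, and their sum was 146, 2831 and 2252 CPM in sham and 1311, 398 and 450 after nephrectomy. The astrocyte list, with all 10 genes detected, summed to 325 to 1110 in sham and 376 to 969 in nephrectomy libraries. Sham 1 stood apart from sham 2 and sham 3 in its oligodendrocyte genes, and both groups overlapped. The 10 members called as doublets included 8 from sham 3. The part of glial transcripts in the results below was not tested beyond leaving these 37 nuclei out.

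The share of septum-like nuclei was compared between the operations. In the 3 sham libraries it was 1.29%, 0.629% and 0.417% of kept nuclei, with exact 95% binomial intervals of 0.887 to 1.80%, 0.379 to 0.980% and 0.316 to 0.540%. In the 3 nephrectomy libraries it was 0.188%, 0.462% and 0.821%, with intervals of 0.119 to 0.282%, 0.283 to 0.713% and 0.587 to 1.12%, all of which cover counting error only. The groups overlapped, with 0.777% ± 0.453 in sham and 0.491% ± 0.318 in nephrectomy (SD, n = 3 each, two-sided exact permutation p = 0.5, adjusted p = 1 over 5 measures). As a share of nuclei with at least 2 UMIs of Gad1 plus Gad2, the values were 2.44% ± 0.516 and 1.53% ± 0.80 (n = 3 each, exact permutation p = 0.2). The limits count UMIs, so the share depends on the depth of the nuclei. Among nuclei with at least 1000 genes, it was 1.38%, 0.776% and 0.637% in sham and 0.548%, 0.519% and 1.06% after nephrectomy. The means were 0.931% ± 0.395 and 0.710% ± 0.307 (n = 3 each, exact permutation p = 0.5). With 3 libraries against 3, the smallest p that the exact test can give is 0.1.

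**Figure D3:**
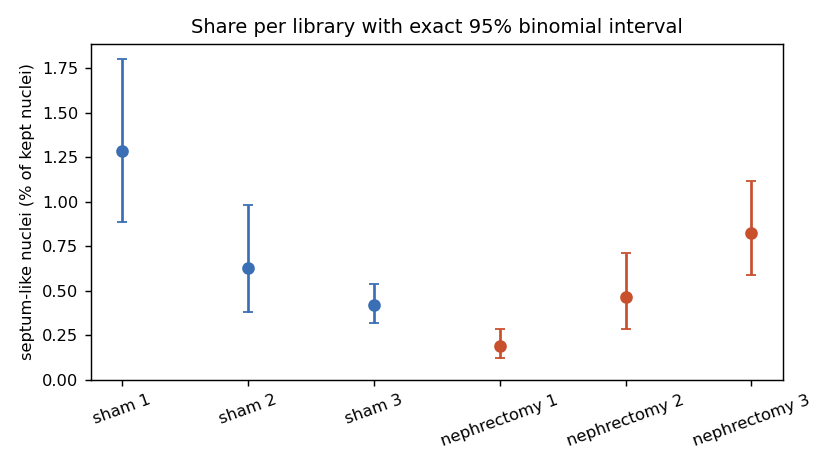
Septum-like nuclei as a percentage of kept nuclei in each library, with exact 95% binomial intervals. The 3 sham libraries lie between 0.417% and 1.29% and the 3 nephrectomy libraries between 0.188% and 0.821%.

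Depth and RNA quality of the members overlapped between the groups. Median UMIs averaged 5342 ± 1506 in sham and 4963 ± 1134 in nephrectomy (n = 3 each, exact permutation p = 0.9), and median genes 2738 ± 508 and 2687 ± 485 (n = 3 each, exact permutation p = 1). Mitochondrial UMIs averaged 0.157% ± 0.0250 and 0.143% ± 0.0693 (n = 3 each, exact permutation p = 0.8). The nuclear RNA Malat1 took 11.1% ± 1.55 and 11.6% ± 0.839 of UMIs (n = 3 each, exact permutation p = 0.7). The adjusted p was 1 for each over the 5 measures tested in one family.

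No gene was called as changed after nephrectomy within the class at an adjusted p under 0.05. Of 3847 genes that passed the filter on low counts, 0 were called (0.0%) by edgeR's quasi-likelihood test, and DESeq2 called 0. At an unadjusted p under 0.05 edgeR gave 172 genes (4.47%), 77 higher and 95 lower, and DESeq2 gave 58. The groups of 3 libraries did not overlap for 380 genes (9.88%). Counts were simulated at these depths with the same spread between libraries for every gene, a coefficient of variation of 0.192. In them edgeR recovered 22.5% of 200 genes changed by 2-fold and 83% of 200 changed by 4-fold. Smaller changes were thus mostly not detectable at this depth, and genes with a larger spread were not simulated.

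The lowest p belonged to Hectd2 (chromosome 19, 36554639 to 36621135, forward strand, GENCODE M21 on GRCm38), which encodes a HECT-type ubiquitin ligase. It stood at 99.9, 70.8 and 97.2 CPM in sham and at 163, 228 and 375 after nephrectomy. The groups did not overlap, and every nephrectomy library was above every sham library. The log2 fold change was 1.48 ± 0.32 (SE), with an edgeR adjusted p of 0.288. Leaving out the 8 nuclei with cholinergic genes, an alternative added after the data had been seen, gave 1.56 with an adjusted p of 0.0370 by edgeR. Leaving out sham 1 gave 1.61 with an adjusted p of 0.00594, and leaving out nephrectomy 1 gave 1.73 with an adjusted p of 0.0348, both by edgeR. Over the 21 settings run, the main one included, Hectd2 was higher after nephrectomy in each, at 0.79 to 1.77, with edgeR or DESeq2 adjusted p from 0.00594 to 0.999.

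Hectd2 had a UMI in 12 of 33, 7 of 19 and 18 of 57 members in sham, which is 36.4%, 36.8% and 31.6%. In the 3 nephrectomy libraries it was in 13 of 23, 12 of 20 and 19 of 40, which is 56.5%, 60.0% and 47.5%. These shares per library were not thinned to 1500 UMIs, so they depend on the depth of the nuclei. The antisense gene Hectd2os overlaps the end of Hectd2 on the opposite strand, and whether the authors' counting used strand is not given in the sources used here. Hectd2os stood at 287, 252 and 255 CPM in sham and at 461, 137 and 402 after nephrectomy, so its groups overlapped. Within nuclei, 51 of the 81 members with Hectd2 had Prkcd (63.0%), against 23 of the 111 without it (20.7%). The share was higher among Hectd2 nuclei in 6 of 6 libraries, and after thinning to 1500 UMIs it was 34.2% against 15.4%. Median depth was 5553 UMIs in nuclei with Hectd2 and 4374 in those without.

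The other genes with non-overlapping groups and the lowest p among those higher after nephrectomy were 2010300C02Rik, Hspa8, Tle2, Gm15261, Gpx4, Slc7a14, Htatsf1, Dnm2 and Rbms1, with log2 fold changes from 0.76 to 1.48. None passed the test, and Tle2 moved from 1.48 to 2.72 without sham 3. 2010300C02Rik stood at 121, 102 and 170 CPM in sham and at 269, 262 and 337 after nephrectomy (log2 fold change 1.10 ± 0.27, edgeR adjusted p = 0.613). Hspa8, which encodes the constitutive chaperone Hsc70, stood at 212, 173 and 182 in sham and at 368, 285 and 327 after nephrectomy (0.76 ± 0.24). Gpx4, the enzyme that reduces lipid peroxides in membranes, stood at 37.4, 15.7 and 52.7 in sham and at 163, 68.3 and 69.6 after nephrectomy (1.36 ± 0.45). For each of these 3 genes the lowest nephrectomy library was above the highest sham library.

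On the lower side the genes were Por, Ndst3, Cntnap5a, Elovl6, Gm29237, Usp29, Smarca1, Scn3a, Sult4a1 and Plcxd3, with log2 fold changes from -1.80 to -0.80 and none past the test. Por encodes the reductase that feeds electrons to microsomal P450 enzymes. It stood at 117, 86.5 and 68.9 CPM in sham and at 28.3, 45.5 and 21.4 after nephrectomy (log2 fold change -1.64 ± 0.46). Elovl6, a fatty acid elongase, stood at 141, 126 and 113 in sham and at 14.2, 45.5 and 80.3 after nephrectomy (-1.37 ± 0.41), and without nephrectomy 3 its fold change was -2.24. Cntnap5a, a neurexin-family adhesion gene, stood at 549, 409 and 304 in sham and at 234, 159 and 284 after nephrectomy (-0.88 ± 0.26). Scn3a, a voltage-gated sodium channel, stood at 408, 260 and 223 in sham and at 198, 194 and 112 after nephrectomy (-0.90 ± 0.29). By edgeR, the adjusted p was 0.985 for Hspa8, Gpx4, Por, Elovl6, Cntnap5a and Scn3a.

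**Figure D4:**
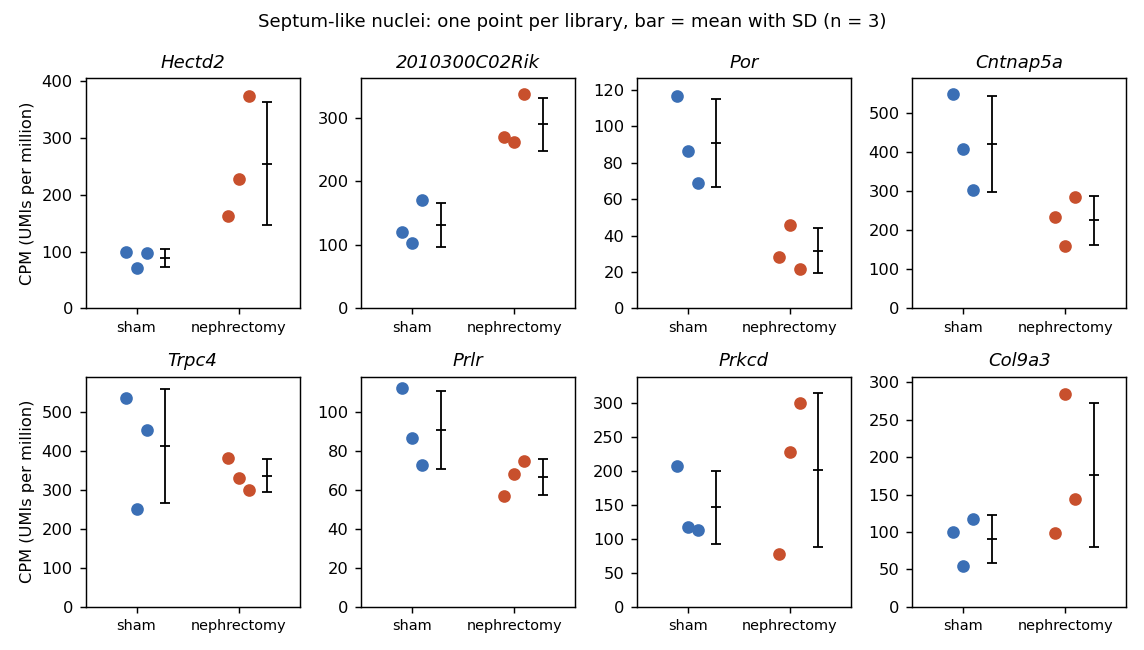
CPM in septum-like nuclei for 8 genes, with 1 point per library and the mean with SD of 3 libraries beside each group, on axes from 0. Hectd2, 2010300C02Rik, Por and Cntnap5a have groups that do not overlap, and Trpc4, Prlr, Prkcd and Col9a3 have groups that do.

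The genes that mark the class were not called. Trpc4 had a log2 fold change of -0.36 ± 0.26, Prlr of -0.46 ± 0.38, Prkcd of 0.42 ± 0.39 and Col9a3 of 0.77 ± 0.37, each with overlapping groups. The share of members with a Trpc4 UMI was 78.8%, 84.2% and 71.9% in sham and 60.9%, 60.0% and 57.5% after nephrectomy, without overlap. After thinning to 1500 UMIs the shares were 45.5%, 36.8% and 46.4% in sham and 22.7%, 47.1% and 32.5% in nephrectomy libraries, and they overlapped. Meis2 (0.15 ± 0.25), Dlx6os1 (0.16 ± 0.26), Isl1 (-0.29 ± 0.45) and the vesicular GABA transporter gene Slc32a1 (0.02 ± 0.41) were near 0 or had errors larger than the change.

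Receptors for hormones and peptides were mostly too low to test. Of 41 genes of that list 7 passed the filter, 3 higher and 4 lower. The receptors for glucocorticoids and mineralocorticoids, Nr3c1 and Nr3c2, had log2 fold changes of 0.23 ± 0.38 and 0.50 ± 0.41, and Igf1r had -0.04 ± 0.36. Without sham 1, Nr3c2 was at 1.13. Il1r1, the interleukin-1 receptor, had 3 UMIs in sham 1, 1 in nephrectomy 2 and 0 in the other 4 libraries. Its accessory-protein relative Il1rapl1, a synaptic adhesion gene, had -0.38 ± 0.28. In the interleukin-1 and Toll list 10 of 35 genes were tested, 7 higher and 3 lower, with a median of 0.11. None of the 21 genes for septal peptides and calcium-binding proteins passed the filter.

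Gene lists were described by counts, beside 1940 of 3847 tested genes above 0 (50.4%), 1907 below 0 (49.6%) and a median of 0.00. In the list of nuclear genes for the respiratory chain, 25 of 72 genes were tested, 23 were higher and 2 lower, none was called, and the median log2 fold change was 0.37. Ndufb9 of complex I had 1.08 ± 0.44 and Cox7a2 of complex IV 0.82 ± 0.38, while Ndufa10 of complex I had -0.79 ± 0.35. The groups did not overlap for 6 of the 25, against 9.88% of all tested genes. In the list of GABA and glycine receptors, 13 of 19 genes were tested, 2 were higher and 11 lower, none was called, and the median was -0.35. Gabrb1, a GABA-A receptor subunit, stood at 395, 260 and 271 CPM in sham and at 191, 296 and 187 after nephrectomy (-0.55 ± 0.26). Gabbr1, a subunit of the GABA-B receptor, had -0.35 ± 0.23, and no gene of this list had groups without overlap.

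The other lists with at least 6 tested genes had medians between -0.19 and 0.11. Of the monoamine and acetylcholine receptor genes, 2 of 27 were tested and both were lower, with a median of -0.63. Among netrin and axon guidance genes 19 of 39 were tested, 6 higher and 13 lower, with a median of -0.19. Unc5d, a netrin receptor, had -0.76 ± 0.37 and the guidance ligand gene Slit2 -0.87 ± 0.44, which was -1.60 without nephrectomy 3. Glutamate receptor genes were 6 higher and 9 lower of 15 tested, with a median of -0.07, and Grik1, a kainate receptor subunit, had -0.80 ± 0.32. Potassium and pacemaker channel genes were 10 higher and 11 lower of 21 tested, with a median of -0.05. Kcnd2, an A-type potassium channel, had 1.24 ± 0.49, and Kcnj3, a G protein-gated potassium channel, 0.80 ± 0.35. No member of these lists was called.

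Fold changes differed a little by gene length. Among 3846 tested genes with a GENCODE M21 span, the 962 shortest (median 10.5 kb) had a median log2 fold change of 0.08 with 59.3% of genes higher, and the 962 longest (median 205 kb) had -0.07 with 42.5% higher. The respiratory chain list had a median span of 7.76 kb, the GABA and glycine receptor list 138 kb and the netrin and axon guidance list 364 kb. The part of gene length in the list medians was not tested.

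**Figure D5:**
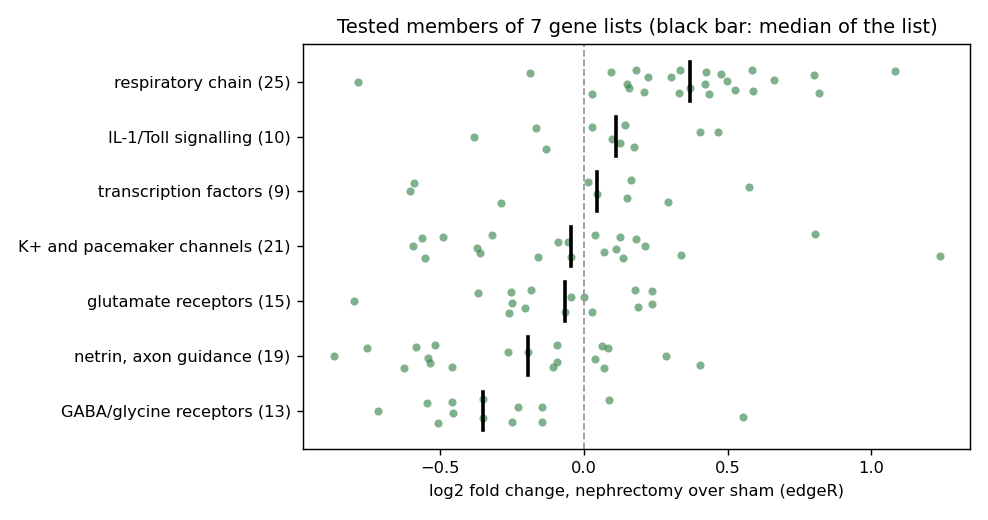
Log2 fold changes (nephrectomy over sham, edgeR) of the tested members of 7 gene lists in septum-like nuclei, with 1 point per gene, the number of genes in brackets and a black bar at the median of each list. Of the respiratory chain genes 23 of 25 lie above 0, and of the GABA and glycine receptor genes 11 of 13 lie below 0.

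Whether the effect of nephrectomy differed from that in other GABA neurons was tested within the same libraries, as an interaction in edgeR. Against striatal-like nuclei, 1 of 10864 genes was called (0.0092%), and 428 (3.94%) had an unadjusted p under 0.05. Against other GABA nuclei, 0 of 9737 were called (0.0%) and 481 (4.94%) had an unadjusted p under 0.05. DESeq2 was not run for this difference. Other GABA nuclei of nephrectomy 1 had a median of only 1030.5 UMIs, against 2188 to 4406 in the other 5 libraries.

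The gene called was Gjc3, which encodes connexin 29, a gap junction protein of myelinating glia. In septum-like nuclei it was at 0, 189 and 174 CPM in sham and at 35.4, 22.8 and 10.7 after nephrectomy. Its groups overlapped, since sham 1 was at 0, and sham 1 was also the lowest library for the oligodendrocyte list. The difference of the nephrectomy effects was -2.58 ± 0.50 on the log2 scale (edgeR adjusted p = 0.00951). In oligodendrocyte-like nuclei Gjc3 ranged from 1436 to 1953 CPM. Without the 37 septum-like nuclei over the glial limit, and with all striatal-like nuclei kept, the difference was -1.01 ± 1.74 (edgeR adjusted p = 1). Without sham 2 it was -2.24 with an adjusted p of 0.172, and without nephrectomy 3 it was -2.12 with an adjusted p of 0.853, both by edgeR. Hectd2 came next, with a difference of 1.43 ± 0.32 against striatal-like nuclei (edgeR adjusted p = 0.0788) and 1.19 ± 0.35 against other GABA nuclei (edgeR adjusted p = 0.937). The difference against striatal-like nuclei was called without sham 1 (1.74, edgeR adjusted p = 0.00410), without sham 3 (1.52, edgeR adjusted p = 0.0474), without nephrectomy 2 (1.71, edgeR adjusted p = 0.00409) and with no filter on low counts (1.41, edgeR adjusted p = 0.0437). That difference was not called without sham 2, without nephrectomy 1 or without nephrectomy 3. It was also not called in nuclei with at least 1000 genes or without nuclei over the glial limit. Against other GABA nuclei, Hectd2 was not called in any setting run. Hectd2 levels ranged from 34.8 to 87.4 in striatal-like and from 36.9 to 125 in other GABA libraries.

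For the respiratory chain list, the difference against striatal-like nuclei was above 0 for 37 of 72 tested genes and below 0 for 35, with a median of 0.02. Against other GABA nuclei it was above 0 for 10 and below 0 for 62, with a median of -0.45. Over all genes tested, 5499 of 10864 and 5145 of 9737 were below 0, with medians of -0.01 and -0.03. Most of the 72 genes passed the filter only with the larger comparison class included. Of the 25 that passed within septum-like nuclei, counted so after the data had been seen, 12 were below 0 against striatal-like and 22 against other GABA nuclei (medians 0.00 and -0.40), beside 1884 and 1933 of all 3847 such genes. For GABA and glycine receptors 12 of 17 genes were below 0 in each difference, with medians of -0.18 and -0.22, and 9 of the 13 that passed within septum-like nuclei. No gene of either list was called.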

How the data were processed

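For each library the authors deposited UMI counts by gene and barcode, which the authors made with Cell Ranger (2.1.1 in the submitters' processing notes, 3.0 in the extract protocol, 6.0.1 per the file headers), aligned to mm10 with introns included per the labels. Which version applies is not known. Nuclei of 6 libraries were gated as described, summed per library and class, and scaled to counts per 1000000 of that sum (CPM). Genes were tested with edgeR 4.0.16 (TMM scaling, filterByExpr, robust quasi-likelihood fit, Benjamini-Hochberg adjustment over all genes tested), with DESeq2 1.42.0 as an alternative. The test was tested on simulated data. Differences between classes used a library term, a class term and their interaction with nephrectomy. Shares and quality measures were compared with exact permutation tests over libraries. Doublets were scored against simulated ones, and the highest-scoring 0.8% per 1000 barcodes were left out as an alternative. Members, gene lists and tests were chosen with earlier results of these data known. Named genes were those with groups that did not overlap, at least 20 CPM and the 10 lowest p in each direction, a fixed list of septal genes, up to 4 genes of the lowest p per pathway list, and the 15 genes highest over the comparison classes. Prkcd and Col9a3 in the comparison of operations, the genes of the cholinergic-gene nuclei, Prdm16, Hectd2os, Gjc3, Col11a1 and the striatal and glial genes were added after their values had been seen. Some genes that met these rules are not reported here. Of 32285 gene IDs, 32158 were found in GENCODE M21.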

Additional observations from a re-analysis of the deposited data

Results flagged for a closer look

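The effect of nephrectomy on Gjc3, the connexin 29 gene of myelinating glia, differed between septum-like and striatal-like nuclei by -2.58 ± 0.50 on the log2 scale (edgeR interaction, adjusted p = 0.00951), the only called difference of 10864. Septum-like nuclei of sham replicates 1, 2 and 3 had 0, 24 and 43 Gjc3 UMIs, and those of nephrectomy replicates 1, 2 and 3 had 5, 2 and 2. The oligodendrocyte marker list moved with it across libraries. Without the 37 septum-like nuclei over the glial limit, and with all striatal-like nuclei kept, the difference was -1.01 ± 1.74.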

How the results depend on the processing

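All 20 alternatives to the comparison of operations within the class were run. The count of called genes stayed at 0 in each direction, except that 1 gene, Hectd2, was called higher without the nuclei with cholinergic genes, and that leaving out 1 library gave 0 to 2 genes higher and 0 to 4 lower. Without sham 1, Gjc3, Enpp2 and Neat1 were among the 4 called lower and Hectd2 and AC149090.1 higher. Without sham 3, 1 gene was called higher, and without nephrectomy 1, Hectd2. With the replicate number as a term (replicate block), 0 genes were called higher and 0 lower (77 and 96 at an unadjusted p under 0.05). Same-numbered libraries did not deviate together (correlations -0.027, -0.011 and 0.0066), so the numbers were not taken as pairs. The difference against striatal-like nuclei gave 5 genes with no filter on low counts (Gjc3, Col11a1, Mobp, Enpp2 and Hectd2) and 0 to 8 when 1 library was left out, with 8 each without sham 1 and sham 3, 3 each without nephrectomy 1 and nephrectomy 2, and 0 without nephrectomy 3. The 1 gene without the nuclei over the glial limit, a limit set on septum-like nuclei alone, was Col11a1, and without sham 2 it was Elavl2. Against other GABA nuclei the count was 0 to 8, with 8 without sham 1, 1 without sham 2 (Elavl2) and 1 without sham 3 (Tle2). The cause was not tested in any of these cases.

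The share of members stayed lower after nephrectomy in every alternative, by -0.467 to -0.0323 percentage points when 1 library was left out. Leaving out 1 library put the difference in median UMIs at -1176 to 321, in median genes at -340.7 to 133.3, in mitochondrial percent at -0.0540 to 0.0103 and in Malat1 percent at -0.386 to 1.15. Of the named genes, some changed sign. Slc32a1 was at -0.023 with no filter on low counts, at -0.076 without nuclei over the glial limit and at -0.22 to 0.42 with 1 library left out. Meis2 was at -0.10 with at least 3 Zic UMIs, at -0.10 without nuclei over the glial limit and at -0.12 to 0.40 with 1 library left out. Igf1r was at 0.0020 by DESeq2, 0.34 in the 4 libraries with short barcode lists, 0.14 with at least 3 Zic UMIs, 0.12 without nuclei over the glial limit and -0.30 to 0.22 with 1 library left out. Dlx6os1 was at -0.070 with at least 3 Zic UMIs. With 1 library left out, Isl1 was at -0.65 to 0.16, Il1rapl1 at -0.59 to 0.050 and Prkcd at -0.087 to 0.85. The median of the respiratory chain list ranged from 0.15 to 0.51 over all settings, that of GABA and glycine receptors from -0.50 to -0.23 and that of netrin and axon guidance genes from -0.61 to -0.0095. With 19 to 57 nuclei per library, changes of 2-fold were mostly not detectable.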

Other observations

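Col11a1, a fibrillar collagen gene chosen here after its values had been seen, stood at 133, 70.8 and 72.9 CPM in septum-like nuclei of sham libraries 1 to 3 and at 56.7, 421 and 209 in nephrectomy libraries 1 to 3. Its groups overlapped, since nephrectomy 1 was the lowest of the 6 libraries. The difference of its nephrectomy effect from that in striatal-like nuclei was 1.50 ± 0.40 (edgeR adjusted p = 0.779). Without the 37 septum-like nuclei over the glial limit, and with all striatal-like nuclei kept, it was 1.69 ± 0.33 (edgeR adjusted p = 0.00255). Without nephrectomy 1, the library with the lowest level, it was 1.97 ± 0.33 (edgeR adjusted p = 1.58e-05). The difference was also called with no filter on low counts, without sham 1 and without sham 3. It was not called without sham 2, without nephrectomy 2 or without nephrectomy 3. Against other GABA nuclei the difference was 1.38 ± 0.56 (edgeR adjusted p = 0.982), and it was called there only without sham 1.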
